A study of Rattus norvegicus with 2 samples.

Results

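AP-1 is a family of dimeric transcription factors built from Fos proteins, Jun proteins and related basic leucine zipper proteins of the Atf, Maf and Batf groups. Fos and Jun genes are classic immediate early genes: their transcription starts within minutes of a stimulus, without new protein synthesis, and their proteins then bind AP-1 sites in the promoters of cytokine, protease and cell cycle genes. In lymph nodes, AP-1 is best known for its part in the activation of T cells, B cells and macrophages. The 10 genes described here are Fos, Fosb, Fosl1 and Fosl2 of the Fos family, Jun, Junb and Jund of the Jun family, and Atf3, Maff and Batf. They were chosen by name, as every noncontrol probe on the array carrying 1 of these gene names, which gave 14 of the 45598 probes for 10 of the 36174 gene names.

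The study asked how acute restraint stress affects gene expression in the cervical lymph nodes of male Sprague-Dawley rats aged 10 to 12 weeks. RNA from the nodes was hybridized to 2 one-color Agilent arrays, 1 of the no-stress control group (C) and 1 of the restraint stress group (RS), in which rats were tied on their backs to a wooden board. By the paper's methods, rats were anesthetized with halothane and killed with pentobarbital. The scanner named in the file headers differs from the one in the paper, and the scan precedes the period the paper gives for its experiments, so it is uncertain how far its methods apply to these arrays. The labels do not give the restraint time, which the paper's array comparison puts at its shortest one. Whether an array held RNA of a single rat or of pooled rats is not given in the sources used here. With 1 array per group no test is possible, the differences compare these 2 arrays, and the error given with each covers the spot measurement only.

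The labelled tissue carried its markers. The T cell markers (6 of 6), the B cell markers on the array (4 of 4) and the macrophage markers (5 of 5) were well above background on both arrays. So were the endothelial markers (4 of 4), though Madcam1 was dim (15.7 on C, 21.8 on RS). They include genes of high endothelial venules, the vessels through which lymphocytes enter a node. The median log2 differences of these lists lay between -0.24 and 0.12. Of these markers, Cd14, of macrophages, was higher by 2-fold or more on the RS array (1.67 on the log2 scale) and none was lower by 2-fold. Markers of other cells differed too. Of the 7 erythrocyte markers, 6 were above background on both arrays, and all 6 were higher on the RS array by 1.42 to 2.88 on the log2 scale. Of the 7 fat cell markers, 6 were above background on both arrays and were higher by 1.08 to 3.24. The erythrocyte markers summed to an intensity of 10221 (C) and 57555 (RS), with Slc4a1 not above background, and the fat cell markers to 6812 (C) and 18195 (RS), with Plin1 not above background. The 5 neutrophil markers summed to 86.0 (C) and 779 (RS), with S100a8 and S100a9 higher by 3.99 and 3.78 and Csf3r by 0.11, while Mpo and Elane stayed near background on both arrays. The part of these cells in the AP-1 values was not tested. In whole nodes, a change in the number of cells of a type and a change in RNA per cell cannot be told apart.

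All 10 AP-1 genes had a higher signal on the RS array, against 52.1% of all genes that could be compared. Of the 10, 7 were higher by 2-fold or more: Fosb, Fosl1, Atf3, Fos, Maff, Junb and Jun. Among all 21086 genes that could be compared, 3.46% were higher by 2-fold or more. None of the 10 was lower by 2-fold, against 4.28% of all genes. With probes holding a run of at least 6 alternating A and G bases left out, 498 of 20241 genes were lower by 2-fold. At a threshold of 1.5-fold, 9 of the 10 were higher and 0 lower, against 7.97% and 8.46% of all genes. At 4-fold, 5 of the 10 were higher and 0 lower, against 0.849% and 1.93%. The median log2 difference of the AP-1 genes was 1.95, and that of all compared genes was 0.016. The AP-1 median was 1.07 over the genes measured on both arrays and 1.13 under another background correction, normexp. Batf, Fosl2 and Jund were higher by less than 2-fold. All 10 passed the requirement of a signal well above background on at least 1 array, but Fos, Fosb and Fosl1 passed through the RS array only. A gene that passes in this way was given a value only if it was brighter there after scaling, as 962 of 972 were. Of these 962, 24.6% were higher by 2-fold or more. Of the 7 AP-1 genes above background on both arrays, 4 were higher by 2-fold or more and 0 lower, against 2.57% and 3.13% of all genes measured on both. The genes were chosen with earlier results of these arrays known, so these counts describe the group and are no independent evidence.

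**Figure D1:**
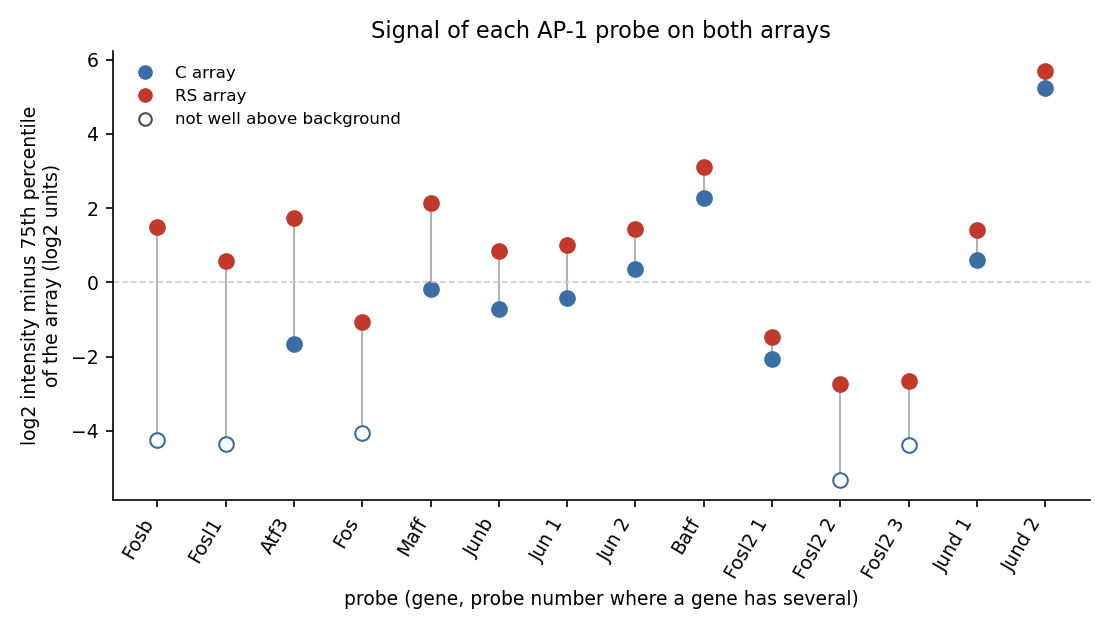
Signal of the 14 AP-1 probes on the C array (blue) and the RS array (red), on a log2 scale relative to the 75th percentile of each array, with open circles for signals not well above background. The RS point lies above the C point for all 14 probes, and 5 probes of Fosb, Fosl1, Fos and Fosl2 have an open circle on the C array. Heights of different probes are not comparable, since probes differ in how strongly they bind.

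Values are first given as intensity in scanner units, and then as the difference between the arrays after each was scaled to its 75th percentile (189 for C, 176 for RS). A probe counted as well above background if over 50% of its spots carried that mark from the scanner. Where only the RS array passed, a C signal below 9.45 was raised to 9.45, the lowest intensity among probes above background on the C array. The fold is then called a lower bound, which holds only for this treatment of background. The spot error given with such a bound is that of the readings before the C signal was raised. For Fosb and Fos the C signal itself exceeded 9.45, so their folds are plain ratios to a dim C signal.

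The probes of Jun and Junb, and the 2 places probed in Fosl2, are shown first, because the values of these genes depend on what each probe can bind. Jun and Junb encode closely related proteins, and the capitals mark bases shared by the Jun probe 1 and the Junb probe when aligned without gaps.

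Jun probe 1: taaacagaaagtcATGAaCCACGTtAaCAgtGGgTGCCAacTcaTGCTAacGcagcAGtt
Junb probe: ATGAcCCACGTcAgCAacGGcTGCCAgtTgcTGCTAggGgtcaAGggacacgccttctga
Fosl2 probe 1: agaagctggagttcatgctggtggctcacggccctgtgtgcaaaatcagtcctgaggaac
Fosl2 probes 2 and 3: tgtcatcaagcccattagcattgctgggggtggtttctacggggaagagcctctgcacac

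The Jun and Junb probes shared 29 of 47 aligned bases, the largest number among the 86 pairs of AP-1 probes of different genes. The longest run of identical bases in any of these 86 pairs was 9, in probes of 60 bases. Fosl2 probes 2 and 3 have the same sequence, which starts at base 731 of the transcript, and Fosl2 probe 1 starts at base 535, so the 14 probes hold 13 distinct sequences. The RefSeq accessions printed for the 10 genes all matched a RefSeq entry of the same symbol.

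Fosb and Fosl1, of the Fos family, had the highest values of the 10 genes. Both were set against a C signal not well above background, so which of them differed more is not determined. Fosb encodes a Fos protein that pairs with Jun proteins, and its shortened splice form is known from chronically stimulated neurons. Its single probe (chromosome 1, 78666646 to 78666705, minus strand, in the coordinates of the array design, whose file header names the build rn4) gave an intensity of 9.94 on the C array, not well above background, and 498 on the RS array. By the ratio of these readings after scaling, Fosb was 53.7-fold higher on the RS array, a log2 difference of 5.75 ± 0.36 (spot error). With normexp, a background correction that raises dim signals, it came to 3.15, or 8.85-fold, so the size of the difference depends on how background is treated.

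Fosl1 encodes Fra-1, a Fos protein without the transactivation domain of Fos that is typical of migrating and invasive cells. Its probe (chromosome 1, 208099035 to 208099094, plus strand) was at 9.17 on the C array, not well above background, and at 264 on the RS array. The bound was 29.9-fold, or 4.90 ± 0.42 on the log2 scale, and the log2 difference was 2.20 with normexp. On the C array the Fosb and Fosl1 probes were at background level, and on the RS array both were clearly detected.

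Fos itself, the founding member of the family and a common marker of recently stimulated cells, was measured by 2 spots of 1 probe (chromosome 6, 109561941 to 109562000, plus strand). The spots gave 9.98 and 13.1 on the C array, where 1 of them was well above background, and 80.1 and 88.7 on the RS array. The lowest RS spot lay 6.11 times above the highest C spot. The mean intensity was 11.4 and 84.3, and by this ratio after scaling Fos was 7.89-fold higher on the RS array (log2 difference 2.98 ± 0.25). With normexp the log2 difference was 1.04.

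The value of the remaining Fos gene, Fosl2, depended on the probe. Fosl2 encodes Fra-2, which is expressed in many resting tissues and lacks the same domain as Fra-1. Its brightest probe, probe 1, was above background on both arrays and read 45.2 on the C array and 64.1 on the RS array, a 1.52-fold difference (0.60 ± 0.22 on the log2 scale). Probe 2 read 4.74 and 26.5, and probe 3, of the same sequence, read 9.09 and 28.1. Both were above background on the RS array only, and their lower bounds on the log2 scale were 1.58 ± 0.76 and 1.67 ± 0.38. All 3 probes were higher on the RS array, but Fosl2 is past 2-fold only by probes 2 and 3, or when the 3 probes are averaged, which gave 1.29. The array design gives no genome position for these probes.

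**Figure D2:**
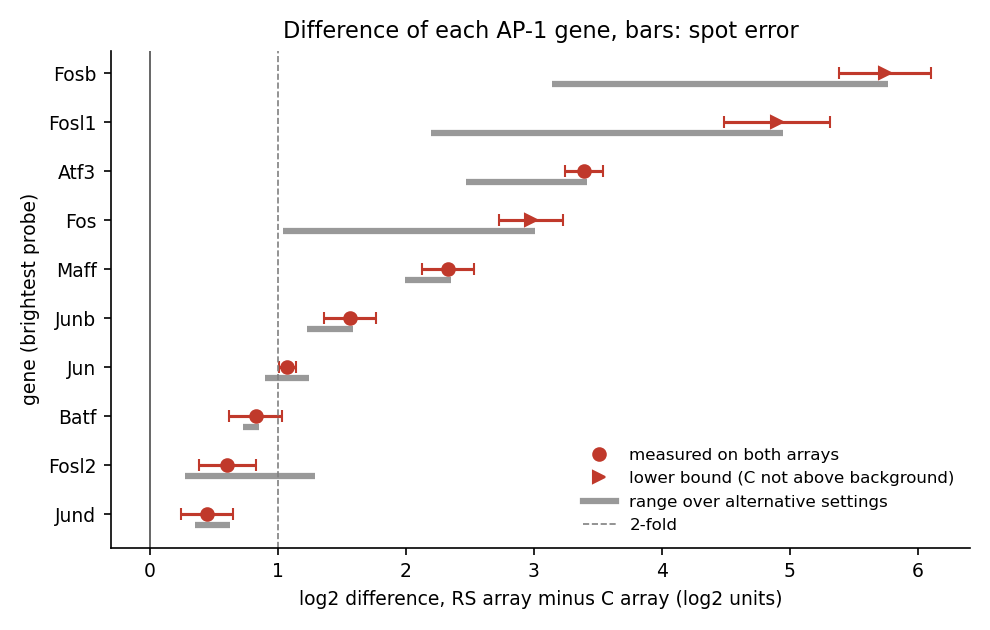
Log2 difference, RS array minus C array, of each AP-1 gene by its brightest probe, with bars of 1 spot error on either side. Right-pointing triangles mark genes whose C signal was not well above background. Grey bands show the range over the alternative ways of processing, which runs for Fos from 1.04 to 3.01 and for Fosb from 3.15 to 5.77. Batf, Fosl2 and Jund lie left of the dashed 2-fold line.

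The Jun genes had differences between 0.45 and 1.56 on the log2 scale by their brightest probes. Jun encodes c-Jun, the partner of Fos in the classic AP-1 dimer, whose gene carries an AP-1-like site of its own. Its brighter probe, probe 2 (chromosome 5, 115358764 to 115358823, minus strand), was printed at 10 spots on each array. The C spots lay between 228 and 259 and the RS spots between 459 and 495, without overlap. The mean intensity was 243 and 478, a 2.11-fold difference, and the log2 difference of 1.07 had the smallest spot error of the 10 genes, 0.065. Probe 1 (chromosome 5, 115359410 to 115359469, minus strand) read 142 and 351, a 2.66-fold difference (1.41 ± 0.21). Both probes of Jun were therefore past 2-fold, although the brighter one only narrowly: it was below 2-fold, at 0.98 on the log2 scale, when the arrays were not scaled to each other, and at 0.90 with normexp.

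**Figure D3:**
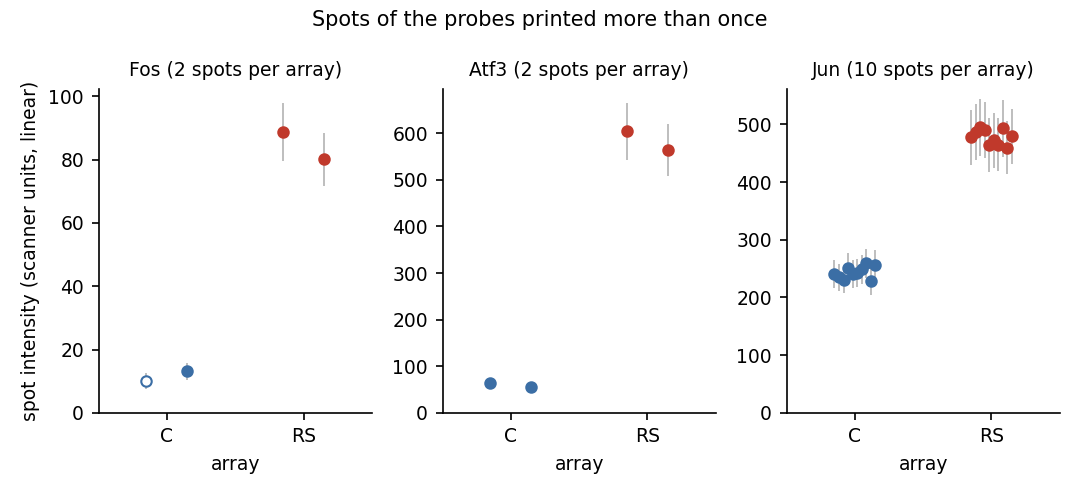
Intensity of every spot (linear axis from 0, scanner units) for the AP-1 probes printed more than once: Fos with 2 spots, Atf3 with 2 and Jun with 10 per array. Vertical lines are the errors the scanner software gives for a spot, and the open circle is the Fos spot that was not well above background. In each panel all RS spots lie above all C spots; spots of 1 array are technical repeats, not animals.

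Junb encodes a Jun protein that activates transcription more weakly than c-Jun and is induced in stimulated lymphocytes and macrophages. Its probe (chromosome 19, 24832781 to 24832840, plus strand) read 115 on the C array and 318 on the RS array, a 2.95-fold difference (1.56 ± 0.21). By this measure Junb rose by more than Jun, and the intervals of 1 spot error did not overlap for the brightest probes, but they did overlap with that of Jun probe 1.

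Jund encodes the Jun protein that is abundant in resting cells and is known to slow proliferation. Its brighter probe, probe 2 (chromosome 16, 19239707 to 19239766, minus strand), read 7144 and 9091, a 1.36-fold difference (0.45 ± 0.20). Probe 1 (chromosome 16, 19240333 to 19240392, minus strand) read 288 and 469, a 1.74-fold difference (0.80 ± 0.20). Neither Jund probe reached 2-fold, and at least 11.6% of all compared genes rose at least as much as the brighter one.

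Of the remaining genes, Atf3 differed most. Atf3 encodes a stress-induced repressor and activator of the Atf/Creb group that pairs with Jun proteins and limits inflammatory gene expression in macrophages. Its 2 spots read 54.8 and 64.6 on the C array and 564 and 604 on the RS array, well above background on both. The lowest RS spot lay 8.73 times above the highest C spot. The means of 59.5 and 584 correspond to a 10.5-fold difference (3.39 ± 0.15), the largest among the 7 AP-1 genes measured on both arrays. The array design places 33 bases of the probe on chromosome 13, 107191582 to 107191614, minus strand.

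Maff encodes a small Maf protein, which has no transactivation domain and acts through partners such as the Nrf2 protein. Its probe (chromosome 7, 117340066 to 117340125, plus strand) read 166 on the C array and 780 on the RS array, a 5.02-fold difference (2.33 ± 0.20). Batf encodes an AP-1 protein of lymphocytes that pairs with Jun proteins and with IRF4. Its probe (chromosome 6, 109817446 to 109817505, plus strand) read 911 and 1507, a 1.77-fold difference (0.82 ± 0.20). Batf stayed below 2-fold, and at least 4.83% of all compared genes rose at least as much.

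Ordered by their difference, the genes ran Fosb, Fosl1, Atf3, Fos, Maff, Junb, Jun, Batf, Fosl2 and Jund. The intervals of 1 spot error overlapped between Jun and Batf, between Batf and Fosl2, and between Fosl2 and Jund, so these neighbours were not separated by the spot measurement. The other neighbours did not overlap, but Fosb, Fosl1 and Fos rest on C signals not well above background. The order changed with the treatment of background: with normexp, Atf3 (2.47) lay above Fosl1 (2.20), and Fos (1.04) lay below Maff (1.99) and Junb (1.22). Every AP-1 probe was higher on the RS array, 14 of 14. Among all compared genes 52.1% were higher, and that share was not counted over probes. Of the 14, 10 were past 2-fold, against 3.3% of all probes compared. However, 5 of the 14 were above background on the RS array only, where a value is given only if it lies above 0. Fosl2 probes 2 and 3 also share 1 sequence. Of the 9 probes above background on both arrays, 5 were past 2-fold, where 2.57% of all genes measured on both were. No AP-1 probe was lower by 2-fold, against 3.92% of all probes. No AP-1 spot was marked as an outlier.

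Increases of 2-fold or more were commoner among dim genes. With all compared genes split into 4 groups of about equal size by mean signal, 6.22% rose by 2-fold or more in the dimmest group, which held Fos, 3.78% in the next, which held Fosb, Fosl1 and Fosl2, 2.33% in group 3, which held Atf3, Maff, Junb and Jun, and 1.52% in the brightest, which held Batf and Jund. All 4 AP-1 genes of group 3 were past 2-fold, and both of the brightest group were below it.

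**Figure D4:**
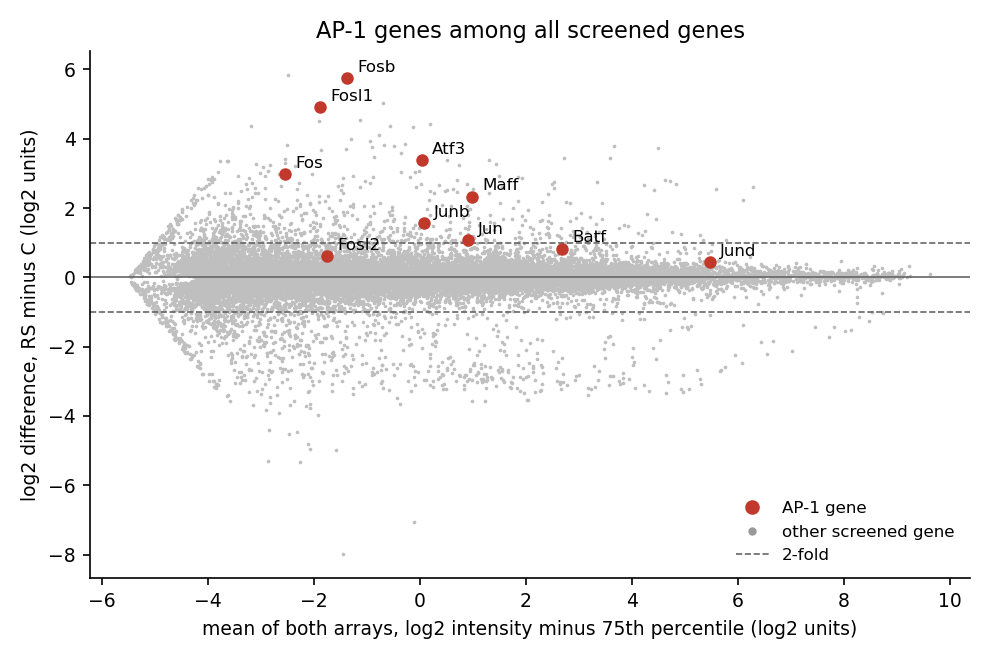
Log2 difference (RS minus C) of each compared gene against its mean normalized log2 signal on both arrays, in grey, with the 10 AP-1 genes in red and dashed lines at 2-fold. Fosb, at 5.75, lies near the top of the plot, and Jund, at 0.45, lies among the bright genes close to the line at 0.

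The genes with the pair of levels nearest to those of Fos and Jun were sought among 19207 genes outside the group, by the distance between their normalized log2 levels on the 2 arrays. Lysmd4 (a log2 difference of 3.05, distance 0.078), Aqp7, which encodes an aquaporin of fat cells that carries glycerol (2.98, distance 0.15), and the transcript ENSRNOT00000070912 (2.64, distance 0.26) lay nearest to Fos. Ier3, an immediate early gene (1.15, distance 0.098), Arl4a (0.92, distance 0.11) and Cdkn1a, which encodes the cell cycle inhibitor p21 (1.26, distance 0.13), lay nearest to Jun. With 2 arrays a pattern has only 2 points, probes differ in how strongly they bind, and the C level of Fos was not well above background, so the likeness describes probe signals and is of little weight.

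Promoters were looked at for members that differed together. The RefSeq promoter table (GRCr8, 250 bases before to 50 after each start) held 7 of the 10 genes, without Fos, Jun and Atf3. The cAMP response element TGACGTCA, which Creb and Atf proteins bind, was found in 2 of the 7 windows, those of Maff and Jund, and in 1.83% of all 33469 promoters. Its core TGACG, which overlaps the full element and was searched on both strands, was found in 5 of the 7 and in 21.2% of all promoters. The 250 bases before the start are shown for Maff, Jund and Fosl1, as examples with the full element or the core, with the matches in capitals.

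Maff (chr7:112792537-112792786, plus strand): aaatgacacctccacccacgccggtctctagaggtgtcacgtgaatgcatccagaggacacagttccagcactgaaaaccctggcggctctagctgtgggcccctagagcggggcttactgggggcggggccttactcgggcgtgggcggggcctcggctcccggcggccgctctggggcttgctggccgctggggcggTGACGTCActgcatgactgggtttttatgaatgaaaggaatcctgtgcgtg
Jund (chr16:18769772-18770021, minus strand): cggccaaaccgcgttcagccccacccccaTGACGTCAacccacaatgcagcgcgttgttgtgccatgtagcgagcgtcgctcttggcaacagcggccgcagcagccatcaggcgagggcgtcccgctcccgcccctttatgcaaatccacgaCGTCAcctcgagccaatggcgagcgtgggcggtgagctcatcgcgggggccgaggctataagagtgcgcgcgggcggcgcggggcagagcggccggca
Fosl1 (chr1:212183635-212183884, plus strand): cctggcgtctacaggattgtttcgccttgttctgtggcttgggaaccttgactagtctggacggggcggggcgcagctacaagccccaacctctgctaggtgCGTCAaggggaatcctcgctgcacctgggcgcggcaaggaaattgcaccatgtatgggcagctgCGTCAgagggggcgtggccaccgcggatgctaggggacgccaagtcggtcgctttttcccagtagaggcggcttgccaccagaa

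The full element began 51 bases before the start of Maff, a gene past 2-fold, and 221 bases before the start of Jund, which was not past 2-fold. The core alone was found in the windows of Fosl1, Junb and Batf, and neither was found in those of Fosb and Fosl2. The AP-1 site TGANTCA was in none of the 7 windows and in 7.33% of all promoters, and the CArG box, bound by serum response factor, was in none of the 7 and in 1.64% of all. A match is a description of letters, and the window for Fosb begins at a start that the RefSeq gene table does not share.

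Genes that pair with AP-1 proteins or resemble them included a few with large differences. Of 39 listed basic leucine zipper genes outside the group, 36 were on the array and 33 could be compared: 7 were higher by 2-fold or more, against 3.46% of all genes, none was lower, against 4.28%, and the median log2 difference was 0.22. Crem, whose short form ICER represses genes induced by cAMP, read 688 and 7049, an 11.0-fold difference (3.46 ± 0.20), with its 5 probes between 1.18 and 3.46. Creb5 read 30.7 and 135, a 4.72-fold difference, but another of its 5 probes gave -0.23. Cebpb, a regulator of inflammatory genes in macrophages, read 438 and 1849, a 4.52-fold difference. Jdp2, which pairs with Jun proteins and represses AP-1 sites, read 397 and 1432, a 3.86-fold difference. At the other end lay Mafa (-0.41), Nfe2l3 (-0.39, while its other probe gave 0.43), Atf6b (-0.25) and Xbp1 (-0.25), none of them past 2-fold.

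The kinases and cofactors that act upstream of AP-1 genes differed little. Of 36 listed genes, all on the array, 33 could be compared: 2 were higher by 2-fold or more and 1 was lower, shares near the 3.46% and 4.28% of all genes, and the median was -0.02. Map3k8, a kinase of the ERK pathway in macrophages, read 897 and 1703 (2.03-fold), and Map2k3, which activates p38, read 615 and 1148. Both lie just past the threshold, and 0 upstream genes were past it without scaling. Next came Mef2d (0.48) and Rps6ka3 (0.28). Map2k1, which encodes the ERK kinase MEK1, read 2722 and 505, 5.04-fold lower, by a probe that holds a run of at least 6 alternating A and G bases. The other Map2k1 probe gave 0.11, and with probes of such runs left out no upstream gene was lower by 2-fold. None of the 14 AP-1 probes holds such a run. Camk4 (-0.52), Mapk3 (-0.38) and Elk3 (-0.27) followed. These are transcript levels, and the kinases are switched on by phosphorylation, which the arrays do not measure.

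Genes known as AP-1 targets mostly lay above 0. Of 40 listed genes, 39 were on the array and 35 could be compared. Of these, 12 were higher by 2-fold or more, against 3.46% of all genes, and none was lower, against 4.28%. In all, 32 lay above 0, against 52.1% of all genes, but targets above background on a single array could differ in that direction only. Over targets measured on both arrays, 10 were higher by 2-fold or more, against 2.57% of all genes measured on both. The median log2 difference was 0.58. With normexp, 6 targets were higher by 2-fold or more, against 1.11% of all genes. Ccl2, a chemokine that attracts monocytes, read 1160 and 14380, a 13.3-fold difference (3.73 ± 0.068). Its probe holds a run of alternating A and G, and without such probes 10 targets were past 2-fold, against 3.54% of all genes. Ptgs2, the inducible cyclooxygenase, read 14.6 and 173, a 12.7-fold difference, while its other probe gave 0.95, and Il6 read 9.99 and 98.6, a 10.6-fold difference. Some targets were above background on the RS array only. Those past 2-fold were Plaur, the urokinase receptor (9.32 and 47.2, at least 5.35-fold higher), and Plau, urokinase (4.38 and 38.6, at least 4.38-fold higher). The others of this kind lay at 0.27 on the log2 scale or below. The lowest values among targets measured on both arrays were those of Mmp9 (-0.11), Mmp13 (-0.02), Ccnd1 (0.01) and Tgfb1 (0.05). Many of these targets have other regulators.

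**Figure D5:**
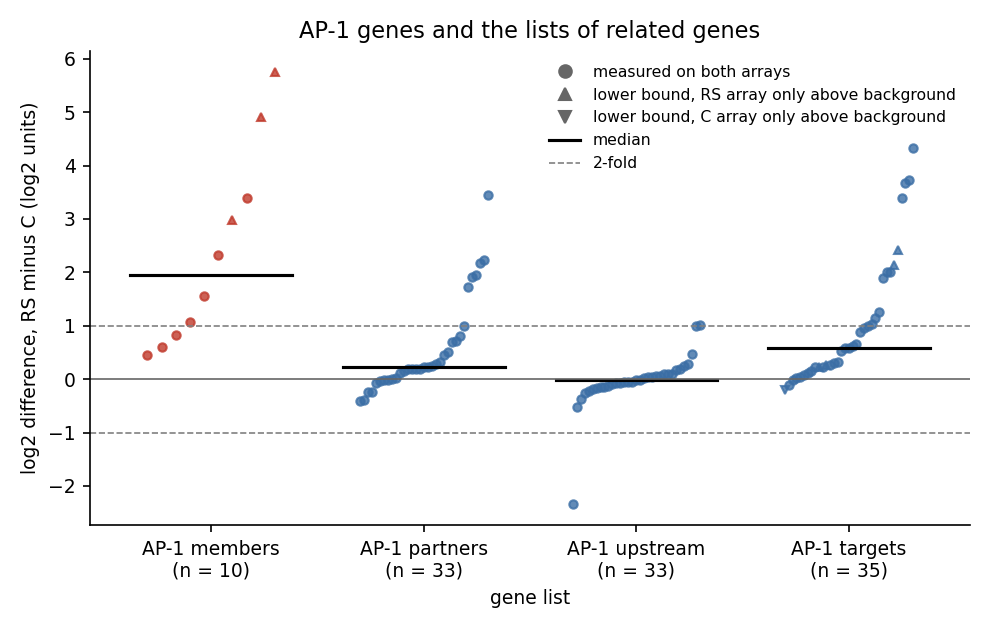
Log2 difference (RS minus C) of each compared gene in the AP-1 group and in the lists of partners, upstream genes and targets. Genes are sorted within a list, with triangles for those above background on 1 array only and black lines for medians. The legend calls the triangles lower bounds, but those of Fos and Fosb are plain ratios to a dim C signal. The medians are 1.95 for the AP-1 genes, 0.22 for partners, -0.02 for upstream genes and 0.58 for targets.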

How the data were processed

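Per the labels and the paper, the authors labeled total RNA with Cy3, hybridized it to Agilent rat arrays and extracted the spots with Agilent Feature Extraction 11.5.1.1. They deposited spot intensity values, background-subtracted within each array, and a table of log2 values per probe. This deposited log2 table, whose scale is not stated with it, is scaled to the 75th percentile: 100% of its 45598 rows lay within 0.1 of the values computed here. Its column medians were -3.509 (C) and -3.539 (RS). Groups came from the labels.

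From the intensity values, control spots and outlier spots (489 on C, 660 on RS, of 58717) were left out, repeated spots were averaged on the log2 scale, and each array's 75th percentile over probes was taken off. A gene took its brightest probe. Of the probes, 54.7% (C) and 54.9% (RS) were well above background, and 8 spike-in controls above background on both arrays differed by -0.055 to 0.026. The number of arrays, 1 per group, limits the precision. The threshold was 2-fold, the paper's own. Spot errors combine those of the scanner software for both arrays, taken before any signal was raised for a lower bound.

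The members, lists and alternatives were chosen with earlier results of these data known. All members were named, and from each list the 4 largest increases and the 4 largest decreases on both arrays, all lower bounds past 2-fold, and the 3 genes nearest to Fos and to Jun. A gene that this rule selects is not reported here. Some genes of the lists were not on the array (Batf2, Bach2, Hlf, Il8) or not above background on either array. The tools were Python 3.11.15, numpy 2.4.6, pandas 2.3.3, matplotlib 3.10.9, R 4.3.3 and limma 3.58.1, and the scripts were tested on simulated data.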

Additional observations from a re-analysis of the deposited data

How the results depend on the processing

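Across 16 alternatives, 0 of 294 recomputed values reversed. Of the 294, 267 moved by less than the spot error (counts, by no more than 1.5 times) and 27 moved by more. Some alternatives could hardly change the AP-1 values: no AP-1 spot was an outlier, no AP-1 probe holds an alternating run, and no member fell to the filter. Counts of 0 have no direction to reverse. The number of values that stayed is therefore no measure of robustness. Normexp background correction with an offset of 50 lowered 8 of the 10 members by more than the spot error: Fos 1.04, Fosb 3.15, Fosl1 2.20, Fosl2 0.27, Jun 0.90, Junb 1.22, Atf3 2.47, Maff 1.99, the members' median 1.13, and 6 targets past 2-fold; it also cut the genes higher by 2-fold among all genes from 730 to 234 and the lower ones from 903 to 378. Requiring both arrays above background left out Fos, Fosb and Fosl1, which gave 4 members past 2-fold, 5 member probes and a median of 1.07. With a 4-fold threshold, 5 member probes, 3 partners and 0 upstream genes were past it. Without scaling, Jun came to 0.98; with the mean over probes, Fosl2 came to 1.29 and Jun to 1.24. The 2 upstream genes past 2-fold became 1 with the percentile over probes above background on both arrays, with quantile normalization, with the deposited table or with the mean over probes, and 0 without scaling, with the percentile over spots or with normexp; the 1 lower upstream gene became 0 without probes of alternating A and G. Without those probes the genes lower by 2-fold fell from 903 to 498. No filter on dim probes gave 1741 higher and 1905 lower genes. Counting probes with at least 50% of spots above background, an alternative chosen after seeing the data, kept 7 members past 2-fold. Fos, with 50% of its C spots above background, then counted as measured on both arrays, at an unchanged 2.98. The figures over genes measured on both arrays were not recomputed with Fos among them. Causes of these moves were not tested. The values of Fos, Fosb, Fosl1 and Fosl2 probes 2 and 3 rest on dim C signals and are uncertain in size. No paired analysis was possible because there was only 1 array in either group.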
